A study of Rattus norvegicus with 16 samples.

Results

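Ceacam4 and Ceacam1 encode members of the carcinoembryonic antigen-related cell adhesion molecules (CEACAM), and both genes were followed across the liver of weanling rats whose dams had received an environmental chemical mixture. The genes were taken as every non-control probe whose RefSeq transcript identifier belonged to either symbol. That gave 1 probe for each gene, A_44_P411912 for Ceacam4 and A_44_P538551 for Ceacam1, out of 30367 probes on the array. Each probe was printed as 2 spots on each array, and both genes were among the 12072 genes or identifiers tested after dim probes were left out. Ceacam4 was selected on its log2 ratio in the mixture groups, which was known to be far above that of the controls, and Ceacam1 as its relative. The values of both genes in the mixture comparisons are therefore given as descriptions, with no test.

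The study raised male Sprague-Dawley rats from dams dosed in corn oil and took liver RNA at 21 days of age. Group C consisted of undisturbed litters of dams on corn oil alone, and group CC of pups adopted at birth by another corn oil dam. Group M consisted of undisturbed litters of dams on a mixture of methyl mercury (MeHg), polychlorinated biphenyls (PCBs) and organochlorine pesticides (OCPs) at 1 mg/kg/day, from conception to the end of nursing. Group MM pups were born to a mixture dam and nursed by another one. There were 4 arrays per group, 16 in all, each hybridised with the pooled liver RNA of 2 pups in Cy5 and a universal rat reference RNA, made from rat cell lines, in Cy3. Slide 1 carried the 8 control arrays (C and CC) and slide 2 the 8 mixture arrays (M and MM). The mixture and the slide cannot be told apart, whereas each comparison of cross-fostered with undisturbed pups was made inside 1 slide. Every group had 2 arrays in row 1 of its slide and 2 in row 2. The labels do not give the litter of a pool, so p-values measure only the spread between these pools.

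CEACAM proteins are cell surface glycoproteins of the immunoglobulin superfamily, and the family has grown by gene duplication. Ceacam1 is the member best known from liver, where hepatocytes carry it at the bile canalicular membrane and where its phosphorylation by the insulin receptor promotes the uptake and degradation of insulin. Rat Ceacam4 is less well described. In humans the gene of that name encodes a receptor of granulocytes, and granulocyte markers were therefore measured beside it.

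Both genes lie on chromosome 1, with 32 other genes of the GRCr8 gene table between them. Their promoter windows, from 250 bases before to 50 bases after the annotated start, are shown because the 2 genes had different values in the mixture groups although these windows are nearly the same sequence. The windows are RefSeq sequence of build GRCr8, chr1:89504305-89504604 on the plus strand for Ceacam4 and chr1:90187743-90188042 on the minus strand for Ceacam1. Each is written 5′ to 3′ along its gene, with the bases that differ in the alignment in capitals.
Ceacam4: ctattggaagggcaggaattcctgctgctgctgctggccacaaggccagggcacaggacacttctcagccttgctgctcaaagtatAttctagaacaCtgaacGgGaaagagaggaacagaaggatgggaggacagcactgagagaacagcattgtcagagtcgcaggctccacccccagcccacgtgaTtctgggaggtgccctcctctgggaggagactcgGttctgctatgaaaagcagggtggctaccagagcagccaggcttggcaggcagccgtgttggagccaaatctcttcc
Ceacam1: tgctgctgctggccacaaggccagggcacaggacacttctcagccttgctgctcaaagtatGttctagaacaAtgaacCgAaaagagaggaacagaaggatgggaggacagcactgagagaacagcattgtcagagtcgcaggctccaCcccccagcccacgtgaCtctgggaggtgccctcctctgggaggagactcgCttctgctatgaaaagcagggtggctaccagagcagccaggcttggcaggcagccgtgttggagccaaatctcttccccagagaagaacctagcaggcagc
The windows aligned over 276 positions, of which 269 (97.5%) were identical, 6 were mismatches and 1 was a base present in Ceacam1 alone. The Ceacam4 window began 25 bases earlier. Among 33469 promoter windows of this length, the Ceacam1 window was the only other that shared at least 10% of the 16-base words of the Ceacam4 window, with 183 of 285 (64.2%). In all, 24 other windows shared at least 1 such word.

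Short motifs were searched on both strands of the windows. GCGTG, the core of the response element of the aryl hydrocarbon receptor, occurred in neither window and in 29.7% of all windows. AGGTCA, a nuclear receptor half-site, also occurred in neither, against 16.2% of all windows. TGACNNNGC, the core of the antioxidant response element, occurred once in each, at position -101 of Ceacam4 and -126 of Ceacam1 relative to the start, and in 12.1% of windows. CACGTG, an E-box, stood at -68 and -92, against 6.42% of windows. It was added to the search after the sequences were seen. None of the differing bases lay within these matches. The probe sequences were not used here, so whether the Ceacam4 probe also binds Ceacam1 transcripts was not tested.

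Ceacam4 was low on every control array and high on every mixture array. Its log2 ratio of liver over reference was 1.26 in C 9, 1.27 in C 10, 1.099 in C 11 and 1.12 in C 12. In the cross-fostered controls it was 0.83 in CC 1, 0.86 in CC 2, 1.38 in CC 3 and 1.17 in CC 4. The mixture pups had 4.56 in M 5, 4.65 in M 6, 4.49 in M 7 and 4.29 in M 8. The 2 control groups overlapped, and so did the 2 mixture groups, but the mixture arrays lay apart from the control arrays. In the cross-fostered mixture pups the log2 ratio was 4.13 in MM 1, 4.28 in MM 2, 4.13 in MM 3 and 4.42 in MM 4. The lowest of the 8 mixture arrays stood 2.75 above the highest of the 8 control arrays on the log2 scale.

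The group means of the Ceacam4 log2 ratio were 1.19 ± 0.09 in C and 4.50 ± 0.16 in M (SD, n = 4 arrays each). The difference of M minus C was 3.31 ± 0.12 (SE), which is 9.92-fold with a 95% confidence interval of 8.35 to 11.8. In cross-fostered pups the means were 1.06 ± 0.26 in CC and 4.24 ± 0.14 in MM (SD, n = 4), and MM minus CC was 3.18 ± 0.12 (SE), or 9.06-fold with an interval of 7.63 to 10.8. Restricted to array row 1 these differences were 3.34 and 3.36, and restricted to row 2, 3.28 and 3.00. All 4 of these values compare slide 2 with slide 1.

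**Figure D1:**
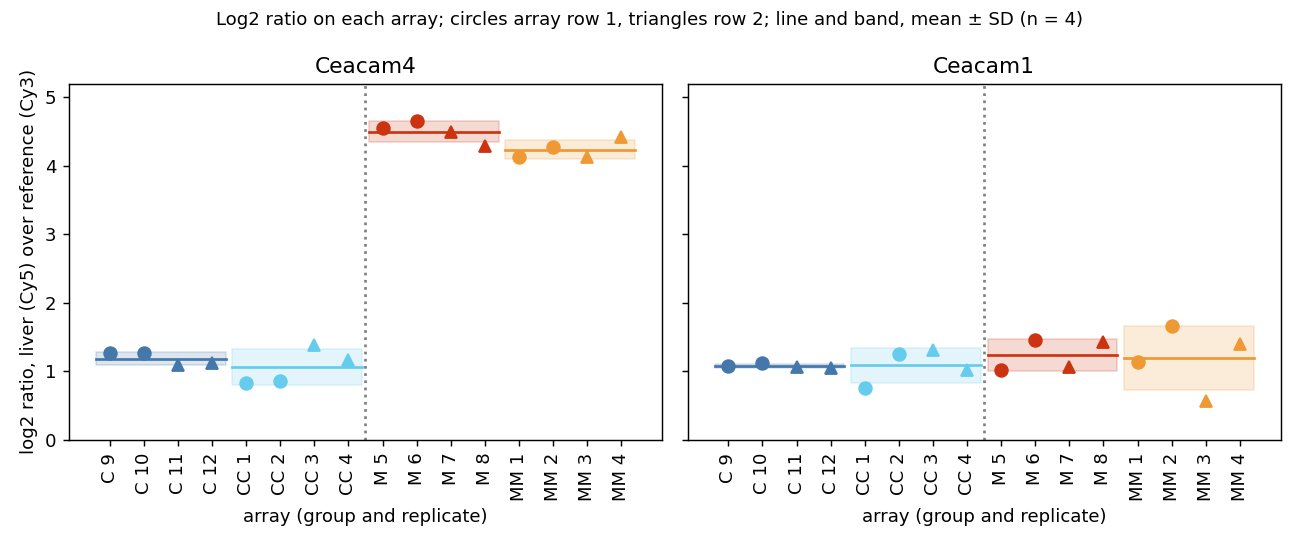
Log2 ratio of liver (Cy5) over reference RNA (Cy3) for Ceacam4 and Ceacam1 on each of the 16 arrays, with circles for array row 1, triangles for row 2, and a line and band for the group mean ± SD (n = 4). Ceacam4 lies between 0.83 and 1.38 on the control arrays and between 4.13 and 4.65 on the mixture arrays, while Ceacam1 lies between 0.57 and 1.66 throughout.

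Of the genes tested, 20.4% were called in M against C at an adjusted p below 0.05 by limma with Benjamini-Hochberg adjustment, 8.19% as higher and 12.2% as lower. In MM against CC 20% were called, 7.83% as higher and 12.2% as lower. Groups that did not overlap were found for 25.1% of genes in M against C, 9.72% with M higher and 15.3% with M lower. In MM against CC the share was 21.9%, 8.68% with MM higher and 13.2% with MM lower. The split of the calls depended on the channel: 40.2% and 39.1% of them were higher in the 2 comparisons, against 73.4% of 267 calls and 83.5% of 310 calls in Cy5 alone and 52% of 2160 calls for MM against CC in the authors' table. Differences as large as that of Ceacam4 were much rarer, although the gene was chosen for its size. A log2 difference of 3 or more was reached by 2 genes (0.0166%) for M minus C and by 3 (0.0249%) for MM minus CC. Ceacam4 had the second largest difference in M against C, after Cyp1a1, the classical cytochrome P450 target of the aryl hydrocarbon receptor, at 5.29 ± 0.27 (SE). It had the third largest in MM against CC, after Cyp1a1 at 5.33 ± 0.27 and Rup2 at 3.32 ± 0.81. Rup2, named after its value was seen, had an error larger than its distance to Ceacam4. The median of all genes tested was -0.05 for M minus C and -0.06 for MM minus CC.

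The raw signals showed the same order. The median Cy5 intensity of the Ceacam4 spots was 124 to 183 scanner units in C and 119.5 to 188.5 in CC, over a local background of 65 to 79. It was 1157 to 2071 in M and 582 to 1458 in MM, over a background of 67 to 73. All 32 Ceacam4 spots were called well above background in Cy5, and none was saturated or an outlier. After subtraction of the local background the mean Cy5 signal was 88.2 ± 12.1 in C, 84.5 ± 16.6 in CC, 1412 ± 252 in M and 1109 ± 184 in MM (SD, n = 4 arrays). These unscaled means differ 16.01-fold between M and C and 13.1-fold between MM and CC. On the normalized log2 scales that hold the liver signal the folds were smaller, 9.62 to 11.1 for M against C and 8.83 to 10.5 for MM against CC, and the cause was not tested.

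**Figure D2:**
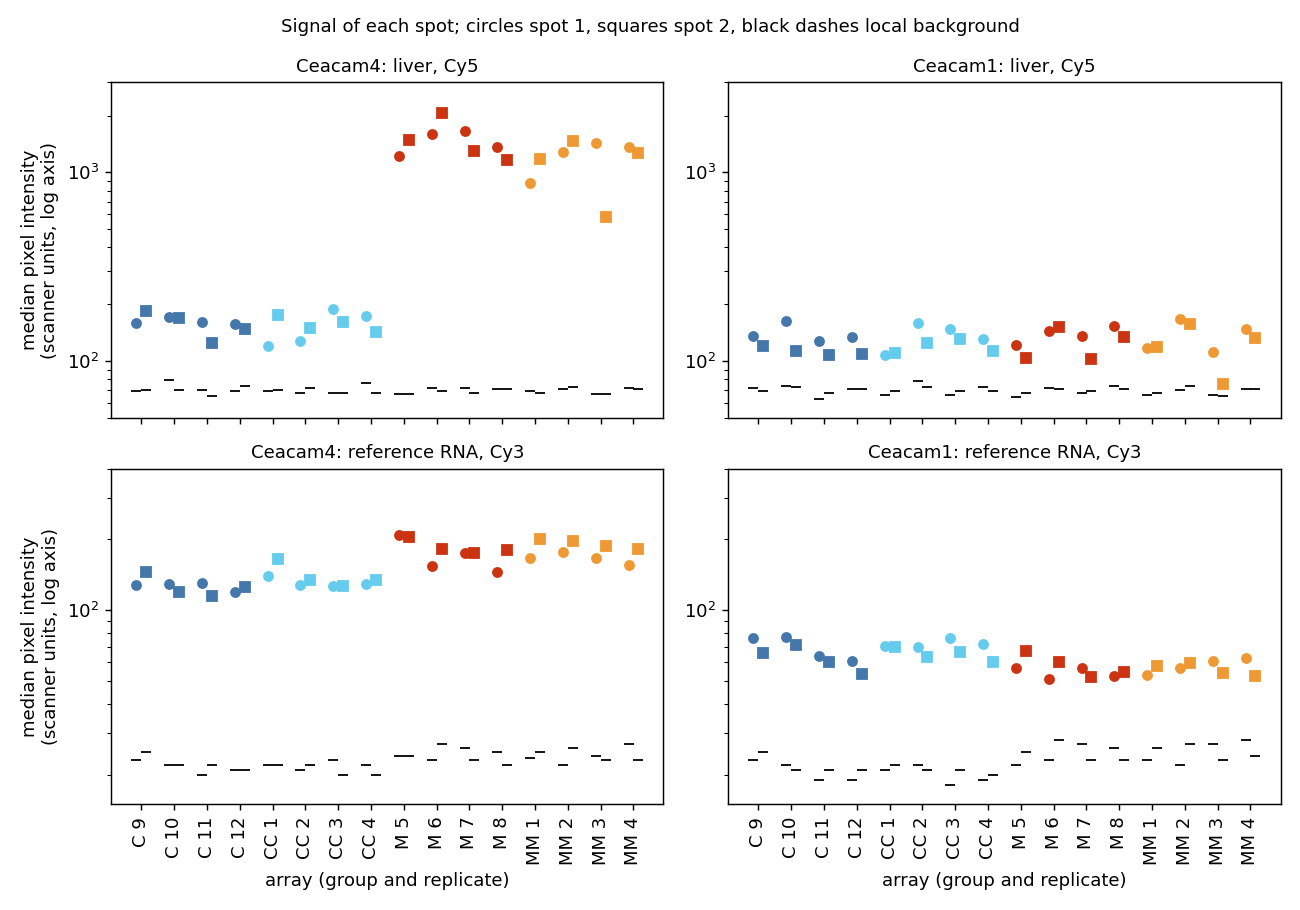
Median pixel intensity (scanner units, log axis) of each spot in the liver channel (top) and the reference channel (bottom), with the local background of each spot as a black dash, for Ceacam4 (left) and Ceacam1 (right). The Ceacam4 liver signal is 119.5 to 188.5 on slide 1 and 582 to 2071 on slide 2, and its reference signal is 115 to 165 on slide 1 and 145 to 209 on slide 2.

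The reference RNA was the same on all arrays. Its signal was compared between the slides, which also differ in the mixture, and the cause of a difference was not tested. For Ceacam4 the background-subtracted Cy3 signal averaged 105 ± 5.34 in C, 114 ± 11.1 in CC, 154 ± 19.8 in M and 155 ± 8.03 in MM (SD, n = 4). On the normalized log2 scale Cy3 alone was higher by 0.38 ± 0.03 (SE) in M than C (limma adjusted p = 9.84e-08) and by 0.35 ± 0.03 in MM than CC (adjusted p = 2.55e-07). All 8 slide 2 arrays lay above the highest slide 1 array. Such slide differences were common in the reference channel, with 75.8% of genes called between the slides in Cy3. Since Cy3 is the denominator, the Ceacam4 ratio includes a slide difference of the opposite sign to its own. Cy5 alone, quantile normalized between arrays, differed by 3.28 ± 0.11 for M minus C and 3.14 ± 0.11 for MM minus CC.

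Ceacam1 overlapped between all 4 groups in the log2 ratio. Its log2 ratio was 1.08 in C 9, 1.12 in C 10, 1.06 in C 11 and 1.04 in C 12. The cross-fostered controls had 0.75 in CC 1, 1.26 in CC 2, 1.31 in CC 3 and 1.03 in CC 4. The mixture pups had 1.01 in M 5, 1.46 in M 6, 1.06 in M 7 and 1.42 in M 8. The C arrays were tightly grouped, and every other group spread to both sides of them. The cross-fostered mixture pups had the widest spread, with 1.13 in MM 1, 1.66 in MM 2, 0.57 in MM 3 and 1.41 in MM 4. On scales without the offset M and C did not overlap. The share of all genes without overlap was not determined on those scales, so how common this is there was not tested. In the log2 ratio that share was 25.1% for M against C. Calls in M against C numbered 4024 by the scanner ratio and 2288 with offset 0, against 2459 in the log2 ratio. By the scanner ratio Ceacam1 was 2.38 to 2.81 in C and 2.87 to 3.75 in M, while CC at 1.97 to 2.85 and MM at 2.63 to 3.77 overlapped. With offset 0 it was 2.12 to 2.26 in C and 2.30 to 2.91 in M, and CC at 1.62 to 2.44 and MM at 1.40 to 3.11 overlapped. In Cy5 alone C at 6.81 to 6.91 and M at 6.79 to 6.99 overlapped.

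The group means of Ceacam1 were 1.08 ± 0.03 in C, 1.09 ± 0.26 in CC, 1.24 ± 0.23 in M and 1.19 ± 0.47 in MM (SD, n = 4). M minus C was 0.16 ± 0.18 (SE), a fold of 1.12 with a 95% interval of 0.852 to 1.47, and MM minus CC was 0.10 ± 0.18, a fold of 1.07 with an interval of 0.818 to 1.41. Within array rows M minus C was 0.13 and 0.19, whereas MM minus CC was 0.39 in row 1 and -0.18 in row 2. Ceacam1 ranked 2200 of 12072 genes by M minus C and 2840 by MM minus CC. Its residual SD over the arrays was 0.29, larger than that of 92.5% of genes, while that of Ceacam4 was 0.17 and the median of all genes 0.15.

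The Ceacam1 signal was faint. Its spots measured 107 to 162.5 scanner units in Cy5 on slide 1 and 75.5 to 167 on slide 2, over a background of 63 to 78. The reference signal was 53.5 to 77 on slide 1 and 51 to 67 on slide 2. Of its 32 spots, 31 were well above background in Cy5, and the exception was a spot of MM 3. After background subtraction the mean Cy5 signal was 55.8 ± 6.20 in C, 57.6 ± 14.0 in CC, 61.4 ± 14.8 in M and 59.2 ± 26.4 in MM (SD, n = 4), which differ 1.101-fold between M and C and 1.03-fold between MM and CC. MM 3 was the lowest array at 27.75 and MM 2 the highest at 89.75, against 41.25 to 72 on slide 1.

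The reference channel of Ceacam1 differed between slides in the direction opposite to that of Ceacam4. Its background-subtracted Cy3 signal averaged 44.8 ± 6.62 in C and 48.0 ± 2.99 in CC, against 31.8 ± 4.52 in M and 32.2 ± 1.21 in MM (SD, n = 4). Cy3 alone was lower in M than C by a log2 difference of -0.23 ± 0.04 (SE, limma adjusted p = 4.39e-05) and in MM than CC by -0.25 ± 0.04 (adjusted p = 2.09e-05). In Cy5 alone M minus C was 0.04 ± 0.11 and MM minus CC 0.06 ± 0.11. The scanner software's own log ratio, which adds no offset, gave Ceacam1 differences of 0.72 ± 0.26 and 0.80 ± 0.26. The liver signal alone therefore differed less than either ratio.

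**Figure D3:**
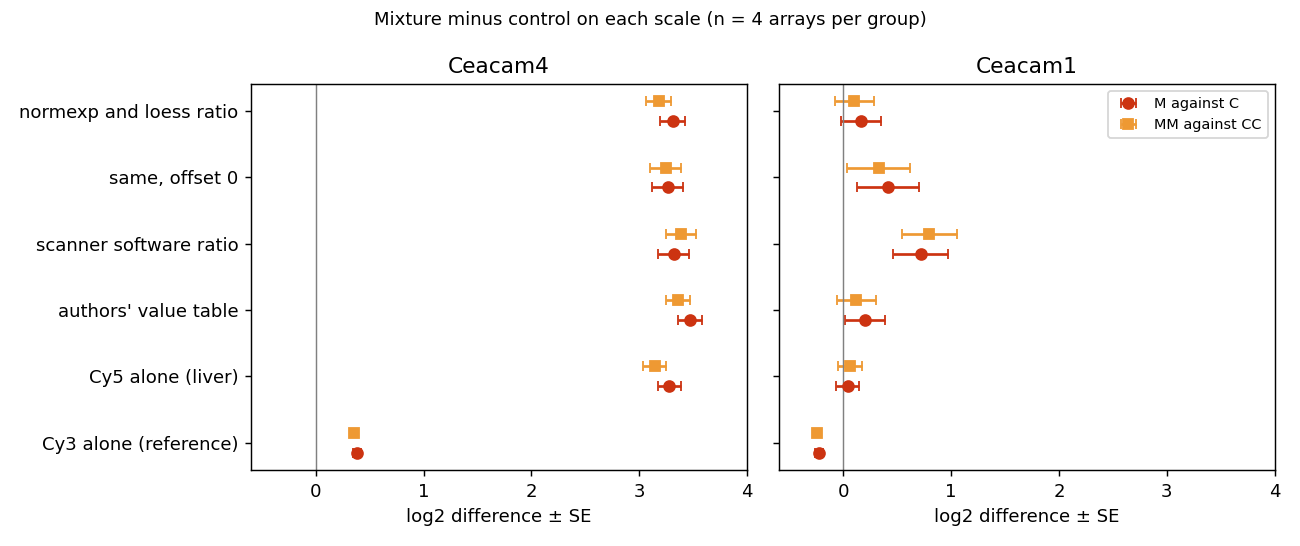
Log2 difference ± SE (n = 4 arrays per group) of mixture minus control for Ceacam4 (left) and Ceacam1 (right), in pups with their own dams (M against C) and cross-fostered pups (MM against CC), on 6 scales from the ratio to each channel alone. Ceacam4 lies between 3.14 and 3.47 on every scale that holds the liver signal, and Ceacam1 between 0.04 and 0.80. The reference channel alone differs by 0.35 to 0.38 for Ceacam4 and by -0.25 to -0.23 for Ceacam1.

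On other scales the Ceacam4 difference kept its size. The scanner software's log ratio gave 3.32 ± 0.14 for M minus C and 3.39 ± 0.14 for MM minus CC (SE). The authors' deposited value table gave 3.47 ± 0.11 and 3.36 ± 0.11, and normexp without an offset gave 3.27 ± 0.14 and 3.24 ± 0.14. The authors' table put Ceacam1 at 0.20 ± 0.18 and 0.12 ± 0.18.

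The 2 spots of each probe allowed a technical comparison within an array. Spot 1 and spot 2 are the order of the feature numbers. For Ceacam4, spot 2 had the higher log2 ratio on all 8 arrays of row 1, by 0.08 to 0.58, and spot 1 on all 8 arrays of row 2, by 0.23 to 1.505. In this ratio the direction of the spot difference thus followed the array row on both slides and in all 4 groups. By the scanner software's log ratio some arrays went against the row. Spot 1 was higher there on M 6 (5.41 against 5.28), MM 1 (4.90 against 4.75) and MM 2 (4.91 against 4.89), all in row 1. Spot 2 was higher on C 12 in row 2 (1.814 against 1.806). The other arrays followed the row, and the MM 3 spots read 5.19 and 4.71. Back in the ratio computed here, the spots compared as follows. The median absolute difference was 0.31, and the largest, 1.505, was on MM 3, where the spots read 1433 and 582 scanner units in Cy5 and 4.88 and 3.38 in log2 ratio. Taken alone, spot 1 gave 3.33 for M minus C and 3.39 for MM minus CC, and spot 2 gave 3.30 and 2.97.

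For Ceacam1 the spot difference did not change sign with the row. Spot 1 was the higher on 7 of 8 arrays of row 1 and on all 8 of row 2. The median absolute difference was 0.28. The largest differences were 0.93 on MM 3 and 0.85 on C 10, wider than the difference between any 2 of the C arrays. MM 3 was also the array with the lowest Ceacam1 ratio and the array with the lowest share of spots above background in Cy5 (46.2%, against 48.3% to 53.9% on the other slide 2 arrays). Without MM 3 the Ceacam1 difference of MM minus CC was 0.31, and without MM 2 it was -0.05. The direction of this difference therefore rests on single arrays.

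**Figure D4:**
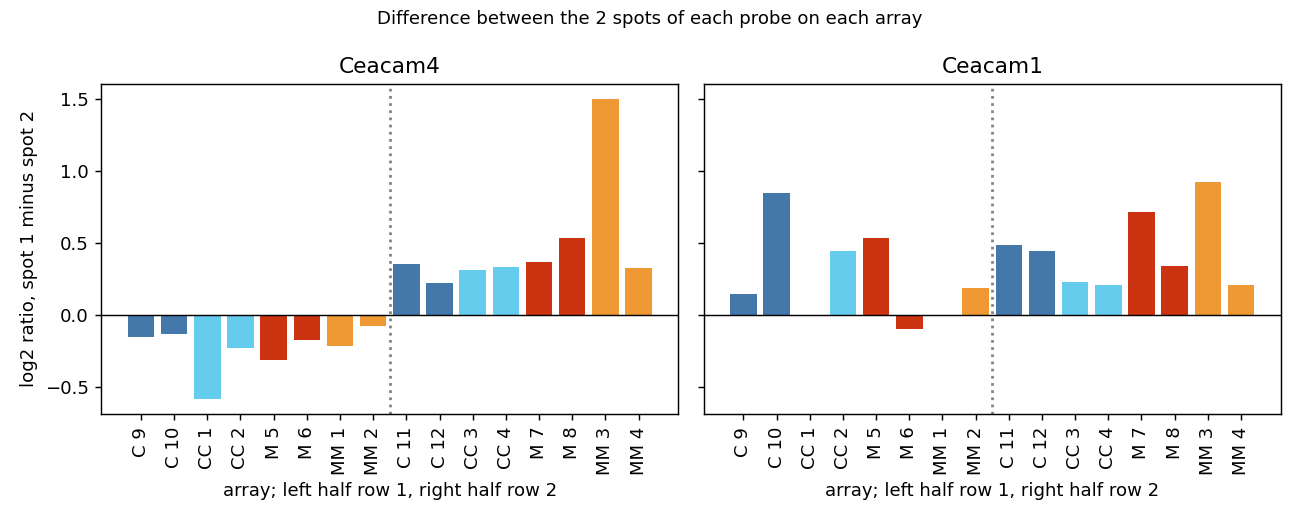
Log2 ratio of spot 1 minus spot 2 of each probe on each array, with the 8 arrays of row 1 on the left and the 8 of row 2 on the right of the dotted line. For Ceacam4 all bars are below 0 in row 1 and above 0 in row 2, with the longest bar, 1.505, on MM 3, while Ceacam1 is above 0 on 15 of 16 arrays, by only 0.0013 on CC 1 and 0.0030 on MM 1, where no bar is visible.

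Cross-fostering was tested within each slide, independently of how the genes were chosen. In unexposed pups the Ceacam4 log2 ratio of CC minus C was -0.13 ± 0.12 (SE, 95% interval -0.38 to 0.12; limma adjusted p = 1.00; exact permutation p = 0.40). The difference was -0.42 in row 1 and 0.16 in row 2. In exposed pups MM minus M was -0.26 ± 0.12 (interval -0.51 to -0.01), with an unadjusted limma p of 0.0413, an adjusted p of 0.999 and an exact two-sided permutation p of 0.0571. It was -0.40 in row 1 and -0.12 in row 2. The smallest p that 4 arrays against 4 allow in the permutation test is 0.0286. Neither difference passed, and the interval in exposed pups reached down to a fold of 0.703. The interaction, (MM minus M) minus (CC minus C), was -0.13 ± 0.17 (adjusted p = 1.00).

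For Ceacam1, CC minus C was 0.01 ± 0.18 (SE, 95% interval -0.38 to 0.40; adjusted p = 1.00; exact permutation p = 1.00). MM minus M was -0.05 ± 0.18 (interval -0.44 to 0.34; adjusted p = 0.999; exact permutation p = 0.914), and the interaction was -0.06 ± 0.26 (adjusted p = 1.00). In each of these comparisons limma called 0 genes of all those tested (0%). At an unadjusted p below 0.05 there were 336 genes (2.78%) in CC against C and 275 (2.28%) in MM against M.

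CC 1 and CC 2 had the highest values of all arrays for transcripts of other tissues. The mean log2 ratio of 4 skeletal muscle markers was 2.95 on CC 1 and 3.10 on CC 2, against -0.08 to 0.08 over the C arrays, and that of 3 exocrine pancreas markers was 4.07 and 5.16 against 0.36 to 1.00. The pancreas mean was also high on MM 1 (3.48) and M 6 (2.66). Among the mixture arrays MM 1 had the lowest Ceacam4 ratio, 4.13, and M 6 the highest, 4.65. CC 1 and CC 2 were the 2 lowest arrays for Ceacam4, at 0.83 and 0.86, and CC 1 was the lowest CC array for Ceacam1. With both left out, an alternative chosen after the data were seen, CC minus C was 0.09 for Ceacam4 and 0.09 for Ceacam1, and MM minus CC was 2.97 and 0.02. Whether the other tissues' RNA lowered the Ceacam4 ratio of these arrays was not tested.

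Ceacam4 and Ceacam1 did not track each other across arrays beyond the spread. Over the 8 arrays of slide 1 Pearson's r was 0.49 (exact permutation p = 0.231) and Spearman's rho 0.55 (exact p = 0.171). Without the 2 arrays farthest from the median, CC 1 and CC 2, r was 0.86. Over the 8 arrays of slide 2 r was 0.29 (exact permutation p = 0.490) and rho 0.12 (exact p = 0.793), and without M 6 and MM 1 r was 0.15. Adjusted over these 2 relations, the p-values of r were 0.461 and 0.490. The arrays of a slide fall into 2 groups each and share a scan and a reference, so these values are given for the slides apart.

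The genes whose pattern was most like that of Ceacam4 were Cyp2b2, Cyp2c7, Tsku, Aldh1a1 and Ephx1. Likeness was the root mean square difference of log2 ratios over the 16 arrays, after each gene was centred on its C mean, so it mainly ranks the size of the slide difference and carries no test. It was computed on the ratio with offset 50 and not on other scales. The nearest was Cyp2b2, the phenobarbital-inducible cytochrome P450, at a root mean square difference of 0.52. It was followed by Cyp2c7, a P450 of steroid and retinoid metabolism, at 0.83. Tsku, a secreted proteoglycan, Aldh1a1, a retinaldehyde dehydrogenase, and Ephx1, the microsomal epoxide hydrolase, all stood at 1.12 to 1.13.

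These 5 genes had lower differences than Ceacam4 in the log2 ratio, but 2 of them had larger ones in Cy5 alone in M against C. In M against C the ratio difference was 2.76 ± 0.20 (SE) for Cyp2b2, 2.34 ± 0.27 for Cyp2c7, 1.83 ± 0.26 for Tsku, 1.69 ± 0.26 for Aldh1a1 and 1.65 ± 0.17 for Ephx1. In Cy5 alone it was 3.55 for Cyp2b2 and 3.97 for Cyp2c7, against 3.28 for Ceacam4. In MM against CC the ratio difference was 2.17 for Cyp2b2 and 2.72 for Cyp2c7, and Cy5 alone gave 2.85 for Cyp2b2 and 3.78 for Cyp2c7, against 3.14 for Ceacam4. The scanner ratio put Cyp2b2 at 1.06 and 0.87 and Cyp2c7 at 1.45 and 2.14 in the 2 comparisons, and offset 0 put Cyp2b2 at 1.73 and 1.34 and Cyp2c7 at 1.79 and 2.31. The sizes of Cyp2b2 and Cyp2c7, and in Cy5 alone their order relative to Ceacam4, thus depended on the scale.

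**Figure D5:**
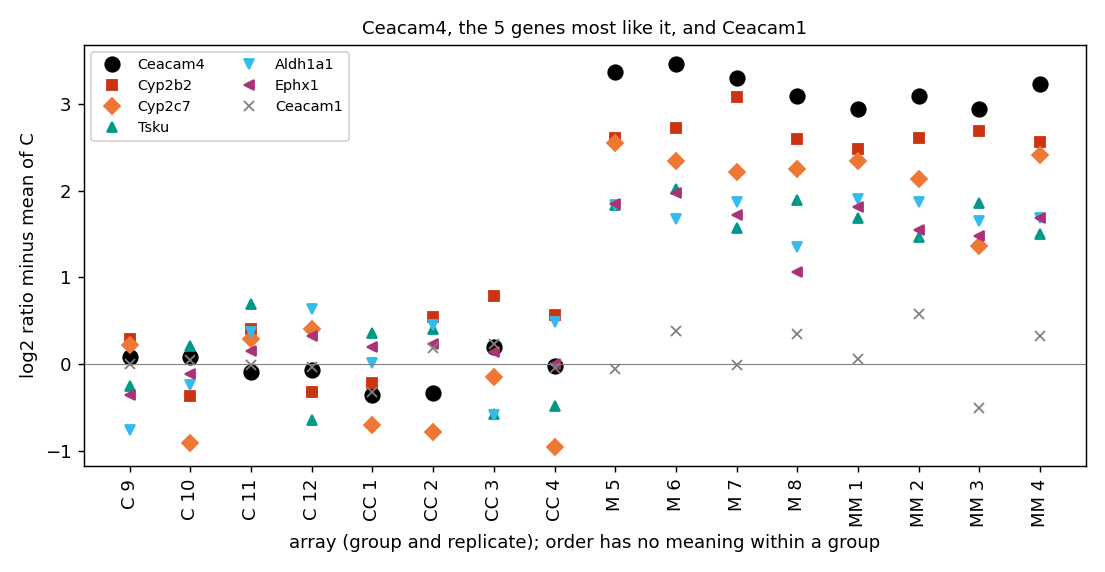
Log2 ratio of Ceacam4, of the 5 genes most like it and of Ceacam1 on each of the 16 arrays, each gene centred on its mean over the 4 C arrays. Ceacam4 (black circles) lies above the other 6 genes on all 8 mixture arrays, Cyp2b2 is the nearest to it with a root mean square difference of 0.52, and Ceacam1 (crosses) is the lowest of the 7 genes on every mixture array.

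The patterns most like that of Ceacam1 were those of genes with little difference between groups. Ugt2b15, a steroid glucuronosyltransferase, was nearest at a root mean square difference of 0.14, followed by Glyatl1, Acbd5, Gamt and Trit1 at up to 0.17. 

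No other gene of the family that was tested had a difference as large as that of Ceacam4. The reference gene table holds 16 symbols of the CEACAM and pregnancy-specific glycoprotein genes, of which 13 had a probe. Besides Ceacam4 and Ceacam1 only Ceacam20, Ceacam9 and Psgb1 were bright enough to be tested. The other 8 with a probe were Ceacam3, Ceacam11, Ceacam12, Ceacam16, Ceacam19, Psg16, Psg19 and Psg29, and all but Ceacam16 were above background in Cy5 on no array.

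Ceacam20, a family member with a signalling tail, was above background on 5 of the 16 arrays, all of them mixture arrays. These were 3 of 4 M arrays and 2 of 4 MM arrays, by the Cy5 signal. It thus passed the filter on dim probes only through M, where it is high, and its difference is given as a description. The adjusted p-values of the filtered fit are printed for it but are not read as tests. Its log2 ratio was 0.16 on average in C and 0.70 in M, a difference of 0.53 ± 0.12 (SE, limma adjusted p = 0.00520), and 0.26 in CC and 0.61 in MM, a difference of 0.36 ± 0.12 (adjusted p = 0.0453). With no filter the adjusted p-values were 0.00731 and 0.0707. The size depended on the scale, with 1.83 and 1.31 by the scanner ratio and 1.21 and 0.79 with offset 0. After loess and Aquantile, set against the lowest signal above background, it was at least 1.32-fold higher in M and at least 1.19-fold higher in MM. These bounds hold for that normalization alone and are open to dye bias. Quantile-normalized Cy5 alone gave log2 differences of 0.34 (adjusted p = 0.0503), a smaller fold than the bound, and 0.28 (adjusted p = 0.109). For MM against CC the printed limma adjusted p-value of Ceacam20 was 0.0675 in the authors' table and 0.0612 with offset 0. It was 0.102 with only the 2 groups in the fit and 0.0666 without both CC 1 and CC 2. With single arrays left out it was 0.0181 to 0.123.

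Ceacam9 and Psgb1 were not called. Ceacam9 differed by -0.27 ± 0.10 (SE, limma adjusted p = 0.0649) in M against C and -0.18 ± 0.10 (adjusted p = 0.214) in MM against CC. Without CC 1 the latter was -0.28 and passed (adjusted p = 0.0314). Psgb1 differed by 0.04 ± 0.11 (adjusted p = 0.852) and -0.07 ± 0.11 (adjusted p = 0.709). Ceacam9 in MM against CC was 0.099 by the scanner ratio, 0.059 in the authors' table and 0.10 in Cy5 alone, and Psgb1 also changed sign with the scale, so neither has a settled direction.

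Neighbouring genes of Ceacam4 had small differences. Of the 20 nearest entries of the gene table, 10 on each side, 4 were tested: Dmrtc2, Rps19, Arhgef1 and Rabac1. None was called in either mixture comparison, and their log2 differences were -0.20 to 0.21 for M minus C and -0.20 to 0.07 for MM minus CC. Ceacam6, the next relative, lies 1 gene away and had no probe in the naming table. Around Ceacam1, 8 of 20 entries were tested. Tgfb1, the growth factor TGF-beta 1, was called lower in both comparisons, at -0.27 ± 0.08 (SE, limma adjusted p = 0.0221) and -0.30 ± 0.08 (adjusted p = 0.0118), and Pafah1b3, a platelet-activating factor acetylhydrolase subunit, in MM against CC alone, at -0.33 ± 0.11 (adjusted p = 0.0406).

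Neither neighbour was called in the liver channel by itself. In Cy5 alone Tgfb1 differed by 0.05 and -0.05 and Pafah1b3 by 0.08 and -0.003, none of them called, while Cy3 alone differed by 0.34 to 0.37 for both. The Tgfb1 call in M against C was also lost by the scanner ratio (-0.19, adjusted p = 0.434), in the authors' table (-0.17, adjusted p = 0.127), with offset 0 (-0.29, adjusted p = 0.0846), and without C 11, M 6 or M 7 (adjusted p of up to 0.0655). The Pafah1b3 call was lost in the authors' table (adjusted p = 0.0691), with offset 0 (0.0636), with no filter (0.0634), with only the 2 groups in the fit (0.0746), without both CC 1 and CC 2 (0.208), and without CC 1, CC 2, CC 4, MM 1 or MM 2 singly (adjusted p of up to 0.119).

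Genes of Ceacam1 signalling and insulin clearance were called about as often as genes in general. Of 15 genes listed, 11 were tested, and 2 were called higher and 1 lower in M against C, beside 20.4% of all genes called, with a median log2 difference of 0.02. Ide, the insulin-degrading enzyme, was called higher at 0.47 ± 0.08 (SE, limma adjusted p = 0.000712), and Shc1, an adaptor of receptor tyrosine kinases, at 0.43 ± 0.11 (adjusted p = 0.0135). Irs2, the insulin receptor substrate, was called lower at -0.51 ± 0.11 (adjusted p = 0.00499). In MM against CC, Ide at 0.45 and Shc1 at 0.50 were called higher again, Irs2 was not called (-0.16, adjusted p = 0.341), and the median was -0.05. These 2 calls of 11 stand beside 20% of all genes called.

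None of these 3 genes was called in the liver channel alone. In Cy5 alone Ide had 0.03 for M minus C and -0.01 for MM minus CC, and Shc1 by -0.13 and -0.04, while their reference signal was lower on slide 2 by -0.51 and -0.55 in M against C. Irs2 in Cy5 alone differed by -0.21 (adjusted p = 0.233). Without M 6 the Shc1 call in M against C was lost by a narrow margin (adjusted p = 0.05001). Insr, the insulin receptor itself, and Fasn, fatty acid synthase, which binds Ceacam1, were not called (-0.08 and -0.03 in M against C).

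Genes of the bile canalicular membrane, where Ceacam1 resides, were also called in the log2 ratio at about the share of all genes (20.4% for M minus C and 20% for MM minus CC). That holds for the whole list, which beside transporters held Dpp4, Anpep, Rdx, Ezr and Slc9a3r1. All of the calls were of transporters. Of 14 genes listed, 11 were tested, 1 was called higher and 1 lower in M against C (median -0.08), and 1 higher and 2 lower in MM against CC (median -0.04). Abcc2, the export pump for bilirubin and drug conjugates, was called higher at 0.37 ± 0.11 (SE, limma adjusted p = 0.0289) and 0.57 ± 0.11 (adjusted p = 0.00239). Abcg5, which together with Abcg8 exports sterols, was called lower at -0.86 ± 0.26 (adjusted p = 0.0288) and -0.96 ± 0.26 (adjusted p = 0.0168). Abcg2, the breast cancer resistance protein, was called lower in MM against CC at -0.74 ± 0.14 (adjusted p = 0.00165).

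All of these transporter calls also passed in Cy5 alone, at 0.51 and 0.80 for Abcc2, -0.81 and -0.81 for Abcg5, and -0.48 for Abcg2. Of all 12072 genes tested, only 267 were called on that scale for M minus C and 310 for MM minus CC. The list was thus called at a higher share than all genes in Cy5 alone, unlike in the log2 ratio. Whether that excess is more than chance was not tested. Other scales and single arrays ended some of the transporter calls. Abcc2 in M against C was 0.28 by the scanner ratio (adjusted p = 0.0585) and 0.30 with offset 0 (adjusted p = 0.0813). Abcg5 in M against C was -0.76 with offset 0 (adjusted p = 0.0740). In MM against CC Abcg5 was -0.44 by the scanner ratio (adjusted p = 0.276), -0.74 with offset 0 (adjusted p = 0.0844) and -0.65 without CC 1 and CC 2 (adjusted p = 0.180). The Abcc2 call in M against C was lost without C 9, C 10, C 11, M 6 or M 7 (adjusted p of up to 0.0896). The Abcg5 call was lost without C 10, C 12 or M 5 in M against C (adjusted p of up to 0.0904) and without CC 1 in MM against CC (adjusted p = 0.0515).

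Markers of the cell types that a liver sample can hold were set beside the Ceacam4 values. In bulk RNA, fewer cells of a type and less RNA per cell cannot be told apart. Of 12 neutrophil markers, 4 were tested (S100a8, S100a9, Camp and Lcn2), 1 had no probe, and 7, among them Elane, Ltf, Ngp and Cxcr2, were above background on 0 of the 16 arrays. The mean log2 ratio of the 4 tested was 1.45 to 2.27 in C, 1.63 to 2.16 in CC, 1.48 to 1.90 in M and 1.30 to 1.68 in MM. None was called in either mixture comparison, with medians of -0.26 and -0.44, and no mixture array lay above the highest control array.

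Other marker lists were set beside it in the same way. The mean log2 ratio of 11 Kupffer cell markers was 3.15 to 3.52 in C, 3.24 to 3.48 in CC, 2.88 to 3.47 in M and 2.75 to 3.39 in MM, and 0 and 2 of them (Marco, -0.93, and C1qc, -0.35) were called lower in the 2 mixture comparisons, beside 12.2% of all genes in each. In Cy5 alone, in MM against CC, neither Marco (-0.57, adjusted p = 0.152) nor C1qc (-0.32, adjusted p = 0.144) was called. For the 4 lymphocyte markers tested of 10 the means were -2.36 to -1.28 on slide 1 and -2.45 to -2.10 on slide 2, and for the 4 endothelial markers tested of 9 they were 3.33 to 3.49 and 3.14 to 3.48, with 0 called in each list. Of 4 cholangiocyte markers tested, Epcam was called higher in both comparisons (0.42 and 0.64), although in Cy5 alone it differed by -0.10 and 0.07. The cholangiocyte mean was -1.94 to -1.24 on slide 1 and -1.77 to -1.61 on slide 2. All 9 hepatocyte markers were tested and 0 were called. Their mean was 6.90 to 7.13 in C, 6.82 to 6.86 in M and 6.69 to 6.97 in MM, and in CC it reached 7.15 apart from 5.59 on CC 1. The summed Cy5 signal of these markers was not low on CC 1, with a log2 of 20.14 against 20.12 to 20.24 over all CC arrays. Of the 4 muscle markers tested, 0 were called in M against C and all 4 lower in MM against CC, where CC 1 and CC 2 were high. One of the 4, Lmod2, passed the filter on dim probes only through CC, where it is high. Its call is given as a description and not read as a test. In Cy5 alone none of the 4 muscle markers was called in MM against CC (adjusted p of 0.0687 to 0.150). Their mean was -0.35 to -0.03 in M and -0.31 to -0.20 in MM. The mean of the 3 pancreas markers reached 2.66 in M and 3.48 in MM, and 0 of them were called. The part of these cell types in the Ceacam4 values was not tested further.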

How the data were processed

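The analysis started from 16 scanner files. The authors extracted them with Agilent Feature Extraction 11.0.1.1, per the file headers. From the deposited files the median pixel intensity per spot, with that of the surrounding background, was taken for either channel. The deposited log10 ratio of Cy5 over Cy3 is the extraction software's own, background-subtracted and dye-normalized, per the file headers. The authors' deposited value table holds log2 ratios whose normalization is not given in the sources used here; it correlated with the ratios computed here at 0.998 to 0.999 per array, with array medians of -0.049 to -0.037.

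Median signals were corrected with normexp (offset 50) and log2 ratios normalized within arrays by loess, with control and outlier spots at weight 0. Replicate spots were averaged per probe. Cy5 alone and Cy3 alone are the log2 signals after normexp with the same offset, quantile normalized between arrays. Probes entered the fit if Cy5 passed the software's test of being well above background on 3 or more of the 4 arrays in any group, and the brightest probe stood for a gene. Probe identifiers were matched to RefSeq symbols of GRCr8. One mean per group was fitted over 16 arrays with limma 3.58.1 in R 4.3.3 (12 residual and 3.95 prior degrees of freedom), with two-sided tests and Benjamini-Hochberg adjustment over 12072 genes, and calls were made below an adjusted p of 0.05. Exact permutation tests ran over arrays. Promoter windows were aligned with Biopython 1.88. The fit was tested on simulated data. Precision is limited by the number of arrays.

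The 2 genes, the lists and the tests were chosen with earlier results of these data known. Named were the family members with a probe, the 10 nearest entries on each side of both genes, the 5 genes most alike in pattern, up to 4 called members per list, and Cyp1a1 and Cyp2b2. Array medians of Cy5 intensity were 87 to 102, with background at 67 to 73, and 46.2% to 53.9% of spots were well above it. Within groups, the weakest correlation between arrays was 0.968 to 0.985. Other groups, doses and the adult age were not analysed here.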

Additional observations from a re-analysis of the deposited data

Results flagged for a closer look

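Single arrays were compared with the other 3 of their group by Dixon's ratio, the gap to the nearest array over the whole range, for 19 genes in 4 groups. Of 76 such groups 6 exceeded the critical value of 0.829, and chance alone flags about 1 in 20. None of the 8 groups of Ceacam4 and Ceacam1 did. Ceacam9 was low on CC 1 (log2 ratio 0.04, next 0.40; ratio 0.851), and Tgfb1 was high on MM 3 (-1.03, next -1.20; ratio 0.834). Cyp2c7 was low on C 10 (2.61, next 3.73; ratio 0.854), Cyp1a1 on M 7 (6.43, next 6.73; ratio 0.909), Irs2 on MM 2 (-0.76, next -0.52; ratio 0.860) and Abcg5 on M 5 (3.69, next 4.65; ratio 0.891).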

How the results depend on the processing

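The alternatives were the scanner software's log ratio, the authors' value table, Cy5 alone, normexp with offset 0, Aquantile, no filter or a strict filter on dim probes, array row as a block, only the 2 groups compared, and leaving out each array. Added after the data were seen were leaving out CC 1 and CC 2 together and each spot alone. Ceacam4 kept its direction in M against C and MM against CC under all of these. Aquantile, the filters, the row block and the fit of only the 2 groups leave the difference of a kept gene unchanged by construction. They are therefore no check of its size or direction. Its difference was 3.47 in the authors' table for M against C, and for MM against CC it was 2.97 without CC 1 and CC 2, 3.39 from spot 1 and 2.97 from spot 2. Leaving out single arrays gave 3.26 to 3.38 and 3.10 to 3.29. Ceacam1 in M against C was 0.72 by the scanner ratio and 0.41 with offset 0, and in MM against CC 0.80 by the scanner ratio. Leaving out single arrays gave 0.09 to 0.24 and -0.05 to 0.31. Under the strict filter Ceacam1 was not kept. Neither gene passed in CC against C, MM against M or the interaction under any alternative, with Ceacam4 at -0.29 to 0.09, -0.33 to -0.21 and -0.35 to 0.07, and Ceacam1 at -0.07 to 0.12, -0.20 to 0.16 and -0.21 to 0.15. The count of genes called in M against C was 4024 by the scanner ratio and 267 in Cy5 alone, and in MM against CC 3957, 310, 1547 with only the 2 groups compared and 1465 without CC 1 and CC 2. Leaving out single arrays gave 1895 to 2151 and 1764 to 2219 calls. Signs were compared for Ceacam9, Psgb1, the genes most like Ceacam4, the 2 neighbours and the called members of the pathway lists. Ceacam20 was compared as a description, and its sign did not turn. Among values below an adjusted p of 0.05 the sign turned in Cy5 alone for Tgfb1 (0.051) and Shc1 (-0.13) in M against C. It also turned for Ide (-0.0054) and Shc1 (-0.044) in MM against CC, and the cause was not tested. Epcam, a called marker, also turned in M against C (-0.10). Of values not called, Pafah1b3 (0.079) and Ceacam9 (0.067) turned in M against C in Cy5 alone, and Ceacam9 (0.10) and Psgb1 (0.10) in MM against CC. The correlation of both genes across arrays was 0.26 to 0.60 on slide 1 and -0.10 to 0.29 on slide 2 under the alternatives. Each gene has 1 probe, so no other probe could be tried. The faint spots of Ceacam1 limit its precision.

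CC and MM share replicate numbers 1 to 4, which need not mark shared animals. The deviations of same-numbered arrays correlated at 0.06 to 0.34, above 0.1 in 3 of 4 pairs, and 2 of 4 arrays correlated best with their own number, so the numbers were not taken to pair the arrays. With a replicate block MM minus CC stayed, by construction, at 3.18 for Ceacam4 and 0.10 for Ceacam1, with 2000 genes called. The block ended the calls of Tgfb1 (limma adjusted p = 0.0509) and Pafah1b3 (0.0946) in MM against CC, and changed no other call of a named gene. Ceacam20, given as a description, had an adjusted p of 0.0560 with the block.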
